A study of Mus musculus with 6 samples.

Results

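The genes described here are 10 core genes of Notch signalling in the mouse mammary gland: the receptors Notch1, Notch2, Notch3 and Notch4, the ligands Jag1 and Jag2, the glycosyltransferase Mfng, and the target genes Hey1, Heyl and Hes1. They were taken by symbol, with every probe set annotated to 1 of these symbols alone, which gave 20 probe sets of 34945 with 1 gene, and 10 genes of 18193. RNA of whole mammary glands from 3 wild-type mice and 3 Elf5 knockout (KO) mice was hybridised to 1 Affymetrix array per mouse. Elf5 is a transcription factor of the ETS family that luminal epithelial cells express. The sample labels place both groups at pregnancy day 17, whereas the design text of the series speaks of lactation day 1. The labels give wild type or Elf5 KO as the only difference between the groups, and the sources used here do not give the way Elf5 was disrupted, nor the strain or age of the mice.

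Notch receptors are membrane proteins that are activated by Jagged or Delta-like ligands on a neighbouring cell. Binding leads to cleavage of the receptor, and the released intracellular part enters the nucleus, where it joins the DNA-binding protein Rbpj and switches on genes such as those of the Hes and Hey repressor families. Fringe enzymes such as Mfng add sugars to the receptor and shift its preference between ligands. In the mammary epithelium Notch signalling is known for promoting luminal over basal fate, and it also acts in blood vessels.

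Hey1 was the member with a clear group difference: its signal was several times higher in every KO array than in any wild-type array, while Hes1 and Heyl were not higher as groups. Jag1, Mfng and Notch1 were higher in all 3 KO arrays without passing the test over all genes. For the 4 receptors, Jag1 and Heyl, probe sets of 1 gene had differences of opposite sign. For the receptors and Jag1 the brightest and the second brightest probe set parted most in KO arrays 2 and 3, and these arrays also had a raised 3' to 5' control ratio for Gapdh.

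Several facts of the whole series bear on these values. Elf5 itself read 12011, 8044 and 7244 in the wild-type arrays (numbers 1, 2 and 3, in that order here and below), against 5616, 4361 and 3128 in the KO arrays, so the groups did not overlap. The difference of -1.06 on this brightest Elf5 probe set missed the threshold (limma adjusted p = 0.109) and passed once the replicate number was a block (adjusted p = 0.0167). A second Elf5 probe set read 8744, 8375 and 4285 in wild type against 3838, 2740 and 640 in the KO, a difference of -1.83 ± 0.62 (SE) without overlap. For Gapdh the 3' control signal divided by the 5' control signal, a measure of how intact the RNA was, lay between 0.802 and 1.09 in the wild-type arrays and KO array 1, against 3.89 and 13.6 in KO arrays 2 and 3. For Actb the ratio of KO array 2, 1.87, lay within the wild-type range of 1.20 to 2.04, as did that of KO array 1, while KO array 3 reached 21.0. Values of KO array 1 alone are therefore given beside the group values of the members and of some other genes. In the test over 10917 genes, 119 passed, or 1.09%, of which 111 were higher and 8 lower in the KO. The RNA came from whole glands, so fewer cells of a type and less RNA per cell cannot be told apart.

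**Figure D1:**
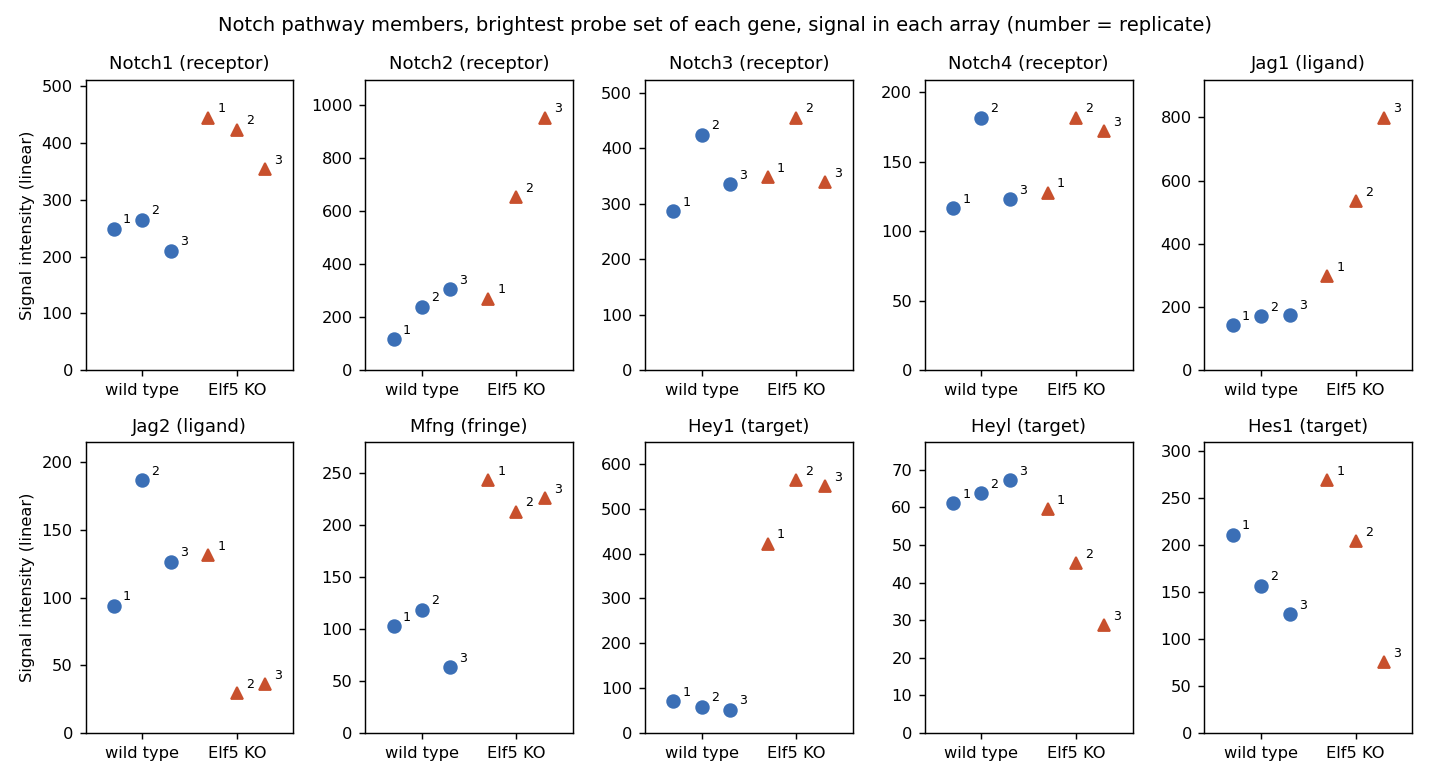
Signal intensity on a linear scale (vertical axis, 1 scale per panel) of the brightest probe set of each of the 10 genes in 3 wild-type (circles) and 3 Elf5 KO arrays (triangles), with the replicate number beside each point. Hey1 lies at 51.8 to 70.4 in wild type against 423 to 564 in the KO, whereas the groups of Hes1, Notch2, Notch3, Notch4 and Jag2 overlap.

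Hey1 encodes a basic helix-loop-helix repressor that is induced by Notch. Its single probe set read 70.4, 58.3 and 51.8 in wild type against 423, 564 and 550 in the KO. The lowest KO value was thus far above the highest wild-type value, and the KO array with intact control RNA lay with the other KO arrays. The group means were 60.2 ± 9.44 (SD, n = 3) and 512 ± 77.8 (SD, n = 3). On the scale of log2(signal + 16), which understates the change of dim genes, Hey1 rose by 2.79 ± 0.28 (SE; 95% interval 2.16 to 3.42; limma adjusted p = 0.0153), and it held rank 1 by p-value among all genes tested. KO array 1 alone lay 2.53 above the wild-type mean on that scale.

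The size of the Hey1 difference moved little in the settings that could change it, but its call did not survive all of the processing. The filters, the trend, the block and the choice of probe set could not change this size. Hey1 has 1 probe set, and both groups have the same number of arrays. Over 20 alternative settings the difference lay between 2.21 and 3.07 and the adjusted p between 0.000271 and 0.154. The call ended when all probe sets were tested in place of 1 per gene (adjusted p = 0.0780, where 0 of 20967 probe sets passed and Hey1 again held rank 1). It also ended without wild-type array 2 (adjusted p = 0.124), wild-type array 3 (0.145), KO array 2 (0.102) or KO array 3 (0.0518), in the 4 arrays with a Gapdh ratio under 2 (0.154) and with that ratio as a covariate (0.112).

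Hes1, the Hes family repressor most often used as a Notch readout, did not follow Hey1. It read 211, 157 and 127 in wild type against 269, 204 and 75.2 in KO arrays 1, 2 and 3. KO array 1 was the highest and KO array 3 the lowest of all 6 arrays, so the groups overlapped completely. The difference was 0.01 ± 0.43 (SE; 95% interval -0.96 to 0.98; limma adjusted p = 0.991), an interval that holds changes of almost 2-fold in either direction. KO array 1 alone lay 0.68 above the wild-type mean.

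Heyl, a relative of Hey1 expressed in vascular mural cells, was dim. Its brightest probe set read 61.1, 63.8 and 67.2 in wild type against 59.5, 45.1 and 28.7 in the KO. All KO values were below all wild-type values, though KO array 1 was lower than the lowest wild-type array by only a small margin. The difference was -0.44 ± 0.31 (SE; 95% interval -1.14 to 0.27; limma adjusted p = 0.424). The second probe set read 42.5, 9 and 39.9 in wild type against 55.3, 27.3 and 36.6 in the KO, a difference of 0.33 in the opposite direction. The third read 1 to 40.4 over all arrays, was below the limit for testing, and showed no separation of the groups.

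Hey1 was then set against the other targets within each array, which removes most of the overall scale of the array. The removal is not complete, since 16 is added to each signal. Levels of different probe sets cannot be compared, so only the change of this within-array difference between the groups is informative. Hey1 minus Hes1 was -1.39, -1.22 and -1.07 in wild type against 0.62, 1.40 and 2.63 in the KO on the log2(signal + 16) scale, a shift of 2.78. Hey1 minus Heyl was 0.16, -0.10 and -0.30 in wild type against 2.54, 3.25 and 3.66 in the KO, a shift of 3.23. Hey1 minus the mean of Hes1 and Heyl averaged -0.65 ± 0.04 (SD, n = 3) over the wild-type arrays and 2.35 ± 0.78 (SD, n = 3) over the KO arrays, and KO array 1 alone was shifted by 2.23. In all 3 contrasts the KO arrays lay above the wild-type arrays, and each had an exact permutation p of 0.1 (two-sided, also 0.1 after adjustment over the 3 contrasts), the smallest that 3 against 3 arrays allow. With n = 3 this design cannot reach the threshold of 0.05. All 3 contrasts hold the same Hey1 values, and the last combines the others. The wide gap between the groups in Hey1 itself set this order, so the contrasts are not separate support for the Hey1 difference.

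**Figure D2:**
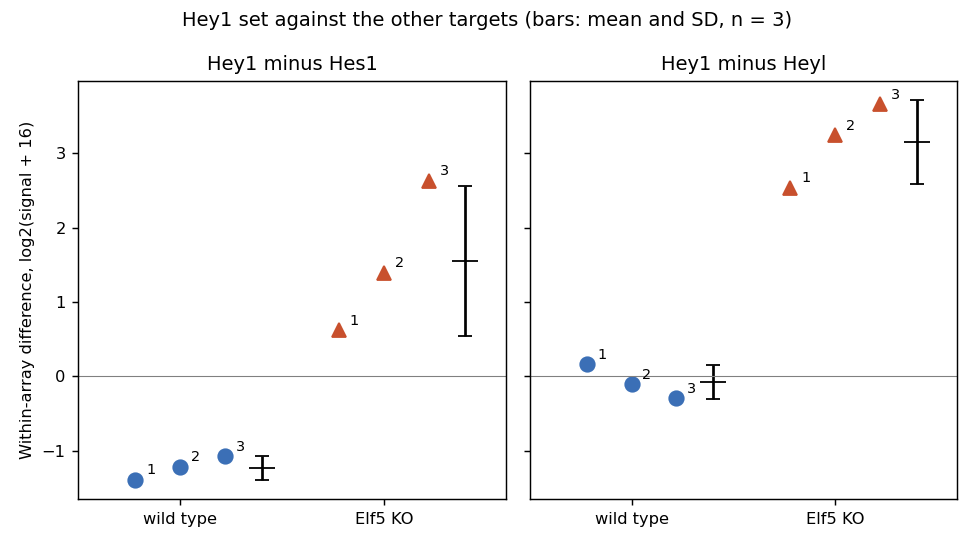
Within-array difference of log2(signal + 16) between Hey1 and Hes1 (left) and between Hey1 and Heyl (right) for 3 wild-type (circles) and 3 KO arrays (triangles), with mean and SD as bars. The KO arrays lie at 0.62 to 2.63 and 2.54 to 3.66, above the wild-type arrays at -1.39 to -1.07 and -0.30 to 0.16.

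Among the receptors, Notch1 was the one whose groups did not overlap on its brightest probe set. It read 249, 265 and 210 in wild type against 445, 424 and 355 in the KO. Every KO array was higher, and KO array 1, with intact control RNA, was the highest. The difference was 0.72 ± 0.28 (SE; 95% interval 0.10 to 1.34; limma adjusted p = 0.177, and 0.0973 with the block). The second Notch1 probe set read 209, 172 and 116 in wild type against 266, 131 and 64.1 in the KO, a difference of -0.25 ± 0.47 (SE). In KO array 1 both probe sets lay above their wild-type mean, by 0.85 and 0.67, whereas in KO array 3 they lay on opposite sides of it.

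Notch2, a widely expressed receptor, had the largest standard error of the 10 genes. The brightest probe set read 117, 239 and 306 in wild type against 270, 653 and 954 in the KO. KO array 1 lay inside the wild-type range, and KO arrays 2 and 3 lay far above it. The difference was 1.36 ± 0.49 (SE; limma adjusted p = 0.160), it passed with the replicate block (adjusted p = 0.0219), and it was 0.37 for KO array 1 alone. The other Notch2 probe set, below the limit for testing, differed in the other direction, with 37.1, 52.5 and 40.7 in wild type against 38.6, 7.5 and 11 in the KO. Averaging both probe sets gave 0.25 in place of 1.36.

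Notch3, the receptor of vascular smooth muscle and pericytes, read 287, 425 and 336 in wild type against 349, 456 and 340 in the KO on its brightest probe set. The groups overlapped and the difference was 0.13 ± 0.29 (SE; 95% interval -0.53 to 0.79; limma adjusted p = 0.820). The name of this probe set marks probes that may match several transcripts. The second probe set read 96.8, 235 and 122 in wild type against 118, 76.1 and 14.5 in the KO, a difference of -1.12 ± 0.56 (SE), with KO array 1 inside the wild-type range.

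Notch4, an endothelial receptor, had 3 probe sets. The brightest read 116, 182 and 123 in wild type against 128, 182 and 172 in the KO, with overlapping groups and a difference of 0.18 ± 0.30 (SE; 95% interval -0.49 to 0.85; limma adjusted p = 0.735). The second read 97, 183 and 173 in wild type against 131, 41.4 and 12.5 in the KO, a difference of -1.38 ± 0.57 (SE). KO array 1 lay inside the wild-type range, and KO arrays 2 and 3 lay below it. The third read 15.5 to 34 over all arrays and was below the limit for testing.

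Jag1, a ligand of the Jagged type, had the largest difference after Hey1. Its brightest probe set read 143, 170 and 176 in wild type against 298, 535 and 799 in the KO. All KO arrays lay above all wild-type arrays, and the KO values differed among themselves by more than the wild-type values. The difference was 1.55 ± 0.37 (SE; 95% interval 0.71 to 2.38; limma adjusted p = 0.0704), it passed with the replicate block (adjusted p = 0.0219), and it was 0.82 for KO array 1 alone. The other probe sets did not show this. The second read 47.8, 93.7 and 74.9 in wild type against 46.9, 48 and 32.8 in the KO, a difference of -0.57 ± 0.33 (SE), and the third differed by -0.59 ± 0.38 (SE). Averaging the 3 probe sets gave 0.13 in place of 1.55.

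Jag2, the other Jagged ligand, was lower in part of the KO arrays. Its brightest probe set read 94.1, 187 and 127 in wild type against 131, 29.4 and 36 in the KO. KO array 1 lay inside the wild-type range, and KO arrays 2 and 3 lay below it. The difference was -1.07 ± 0.47 (SE; 95% interval -2.12 to -0.02; limma adjusted p = 0.220), and KO array 1 alone lay 0.0015 from the wild-type mean. The second probe set read 129, 111 and 96.9 in wild type against 89.1, 92.2 and 86.5 in the KO, with no overlap but a difference of only -0.28 ± 0.28 (SE). Over the 6 arrays the means of the first and second probe sets were nearly tied, at 100.72 and 100.67. The value of Jag2 as a gene thus rests on a near tie, and averaging both probe sets gave -0.67.

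Mfng, the fringe enzyme, read 102, 118 and 62.8 in wild type against 243, 212 and 226 in the KO on its single probe set. The KO values lay close together and all above wild type, with means of 94.4 ± 28.5 (SD, n = 3) and 227 ± 15.1 (SD, n = 3). The difference was 1.17 ± 0.30 (SE; 95% interval 0.50 to 1.85; limma adjusted p = 0.0812), and it passed with the replicate block (adjusted p = 0.0358). KO array 1 alone lay 1.26 above the wild-type mean. The KO array with intact control RNA was thus the highest of all 6.

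Over the 10 genes, all of which reached the limit for testing, 1 rose, none fell and 9 did not pass, beside 1.02% of all genes tested that rose and 0.0733% that fell. With the replicate block Hey1, Jag1, Notch2 and Mfng rose, beside 7.57% of all genes that rose and 4.43% that fell. By mean, 8 of the 10 were higher in the KO, and the median difference was 0.45, beside 0.07 over all genes tested. With all probe sets of a gene averaged Heyl fell below the limit for testing, and the median of the other members was 0.13, beside -0.07. The groups did not overlap for 5 of the 10 genes, 4 higher and 1 lower, where 17% of all genes tested lay higher and 10.7% lower without overlap. Of the 20 probe sets, 17 were bright enough for testing and 0 passed in the limma fit over all probe sets, in which 0% of all probe sets passed and 3858 of 20967 had an unadjusted p under 0.05, among them 6 of the 17. Without KO array 1, which leaves the KO arrays with raised Gapdh ratios, Hey1, Jag1 and Notch2 rose and Jag2 fell (adjusted p = 0.0104 to 0.0294), beside 6.1% of all genes that rose and 5.02% that fell in that fit.

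**Figure D3:**
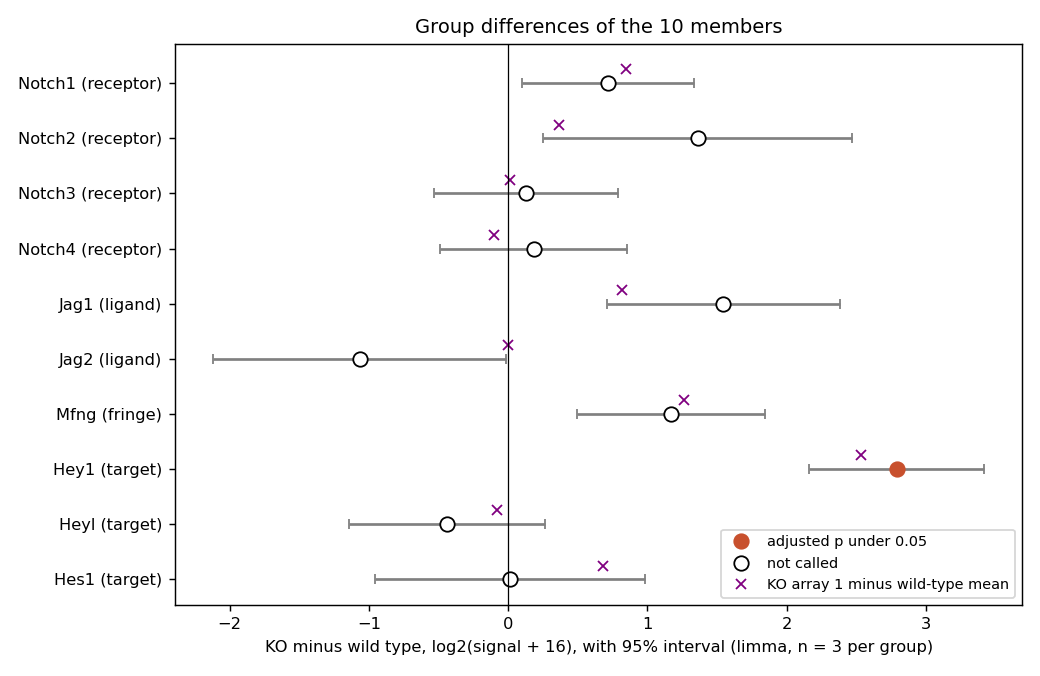
Difference between KO and wild type on the log2(signal + 16) scale (horizontal axis) for the brightest probe set of each gene, with limma's 95% interval (n = 3 arrays per group), and the value of KO array 1 alone as a cross. Hey1 is filled because it passed (adjusted p = 0.0153), and its cross at 2.53 lies close to the group value of 2.79, unlike those of Notch2 and Jag1.

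Of the 7 members with several probe sets, 6 had probe sets with differences of opposite sign, all except Jag2. Counting only probe sets bright enough for testing, which leaves out the second one of Notch2, it was 5 of 6, beside 51.3% of all genes with several tested probe sets. Among the 7 tested probe sets that were not the brightest of their gene, 6 had a lower mean in the KO and 6 had their lowest value in KO array 3. Over all tested probe sets that were not the brightest of their gene, 61.7% had a lower mean and 45.4% were lowest in KO array 3. For Jag1 the brightest probe set exceeded the second by 1.31, 0.76 and 1.08 in wild type against 2.32, 3.11 and 4.06 in the KO on the log2(signal + 16) scale. For Notch2 this excess was 1.33, 1.90 and 2.51 in wild type against 2.39, 4.83 and 5.17 in the KO. In 6 of 10 such pairs the excess was highest in KO array 3, the array with the Gapdh ratio of 13.6. The pairs of Notch4, of Jag1 and of Heyl share a brightest probe set. The share of such pairs over all genes was not counted. The part of RNA quality in these differences was not tested, and the positions of the probe sets along the transcripts were not used here. Hey1, Hes1 and Mfng have 1 probe set each, so this comparison cannot be made for them.

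**Figure D4:**
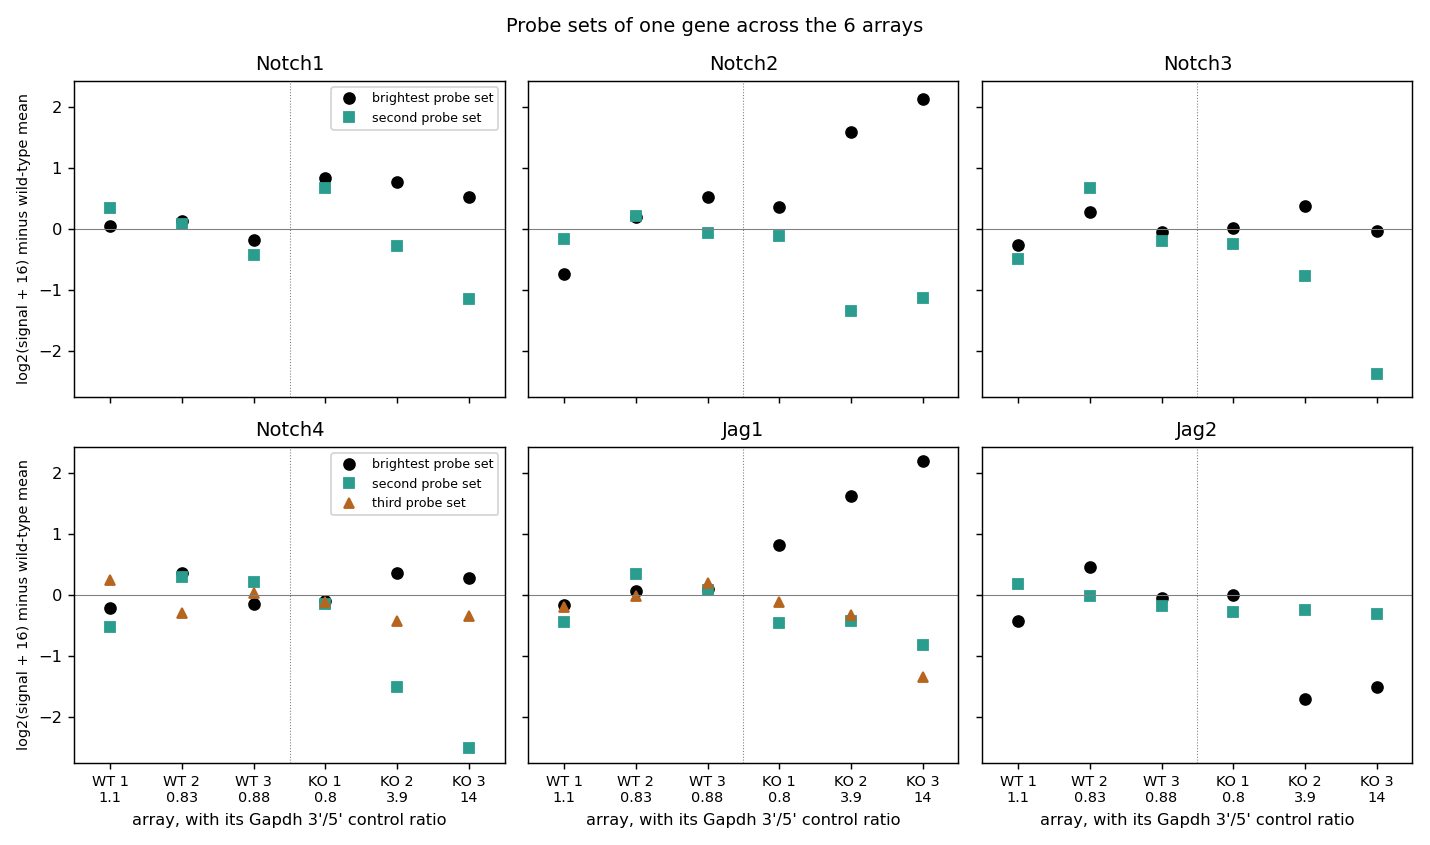
Each probe set of 6 genes in the 6 arrays, as log2(signal + 16) minus its wild-type mean, with the Gapdh 3' to 5' control ratio of the array under its name. The probe sets of Notch1, Notch2, Notch3, Notch4 and Jag1 part in KO arrays 2 and 3 (ratios 3.89 and 13.6), and lie closer together in KO array 1 (0.802), where those of Jag1 are still farther apart than in any wild-type array.

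Promoter sequence from RefSeq (GRCm38.p6) was matched for 6 of the 10 genes, the 4 receptors and both ligands; Hey1, Heyl, Hes1 and Mfng were not matched. The 250 bases before the annotated start were searched on both strands for GTGGGAA, a core motif of Rbpj, and for AGGAAG, a core motif of ETS factors; neither contains the other. The Rbpj letters were in 0 of the 6 windows and in 5.42% of 32851 windows of all genes. The ETS letters were in the Notch4 window alone, 3 times, and in 29.5% of all windows, with 6.25% holding them at least 2 times. Those matches lie 240 to 245, 192 to 197 and 68 to 73 bases before the start. The 2 windows below are shown because Jag1 had the largest difference among the matched genes and Notch4 alone held the ETS letters, which are in capitals (CTTCCT is AGGAAG on the other strand). Jag1 is on the minus strand at chr2:137116521-137116770 and Notch4 on the plus strand at chr17:34564045-34564294, both written 5′ to 3′ along the gene.
Jag1: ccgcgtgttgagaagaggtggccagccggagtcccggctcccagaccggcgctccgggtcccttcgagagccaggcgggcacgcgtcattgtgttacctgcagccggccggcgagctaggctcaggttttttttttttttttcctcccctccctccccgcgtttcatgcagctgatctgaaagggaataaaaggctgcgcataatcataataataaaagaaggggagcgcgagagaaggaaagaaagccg
Notch4: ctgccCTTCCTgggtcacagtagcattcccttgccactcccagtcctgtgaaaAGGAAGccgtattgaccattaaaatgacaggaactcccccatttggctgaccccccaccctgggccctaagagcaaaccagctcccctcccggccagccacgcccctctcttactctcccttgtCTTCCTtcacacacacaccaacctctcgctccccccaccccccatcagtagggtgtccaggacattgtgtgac
Jag1, whose window held neither motif, had the difference of 1.55 on its brightest probe set, and Notch4, with 3 ETS matches, that of 0.18. A match of letters is not a bound site, and a window without one says nothing of sites elsewhere.

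The wider pathway was described with 81 further genes in 8 roles, of which 75 had a probe set and 58 were bright enough for testing. None of the 58 passed in limma (beside 1.09% of all genes tested), 10 had an unadjusted p under 0.05 (beside 2420 of all 10917), and the median difference was 0.19, beside 0.07 over all genes. With the replicate block 4 rose (Rbpj, Dtx2, Dtx4 and Snai2) and 1 fell (Ncstn), where 12% of all genes passed.

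Rbpj, the DNA-binding partner of all 4 receptors, read 187, 249 and 293 in wild type against 367, 546 and 790 in the KO. All KO arrays were higher, and the difference was 1.13 ± 0.35 (SE; limma adjusted p = 0.119, and 0.0345 with the block). A second Rbpj probe set also did not overlap between groups but differed by only 0.42, and the dimmest one by 0.05. Maml1, a coactivator of the Rbpj complex, differed by 0.80 ± 0.36 (SE), and by -0.22 on its second probe set. By mean, 6 of 7 nuclear activators were higher in the KO, where 5902 of all 10917 genes were. In KO array 1 alone Rbpj, Snw1 and Maml1 lay 0.58, 0.23 and 0.13 above their wild-type means. Ep300, Crebbp, Kat2a and Kat2b lay below theirs in that array.

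Among 14 genes of receptor trafficking and turnover, 11 had a higher mean. Of these 11, Numb, Itch, Dtx3, Mib1 and Dvl1 lay below their wild-type means in KO array 1, and the rest above. Dtx4, a Deltex ubiquitin ligase that acts on Notch, read 214, 87 and 141 in wild type against 365, 290 and 301 in the KO, a difference of 1.10 ± 0.34 (SE; limma adjusted p = 0.119, and 0.0422 with the block). As for Mfng, KO array 1 was the highest of the KO arrays. Its relative Dtx2 differed by 1.18 ± 0.40 (SE; adjusted p = 0.140, and 0.0320 with the block), and a second probe set by 0.44. Of 8 genes of the cleavage machinery, 4 had a higher and 4 a lower mean; Ncstn and Aph1a, subunits of gamma-secretase, differed by -1.19 ± 0.57 and -0.74 ± 0.33 (SE). Ncstn read 360, 340 and 69.7 in KO arrays 1, 2 and 3, so its difference leaned on KO array 3.

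Of the other ligands, Dll1 differed by 0.58 ± 0.32 (SE) and Dlk2, a non-canonical ligand, by -0.99 ± 0.33 (SE), and 4 of 7 were too dim to test; of the 3 tested, 1 had a higher and 2 a lower mean. Among 5 enzymes that add sugars to the receptors, 3 had a higher mean; Poglut1 differed by 0.85 ± 0.31 (SE) without overlap between groups, and Pofut1 by 0.44 ± 0.32 (SE), with -0.75 on its second probe set. Of 10 corepressors 4 had a higher and 6 a lower mean, with a median of -0.11 and Tle1 lower without overlap. Tle4 and Tle3 differed by 0.92 ± 0.45 and 0.42 ± 0.30 (SE), and for both a dimmer probe set differed by a negative value. KO array 1 alone lay -0.11 from the wild-type mean for Tle4 and 0.22 for Tle3. Among other Hes and Hey genes only Hes6 was bright enough, at -0.15 ± 0.28 (SE), and the close Hey1 relative Hey2 read 8.2 to 28.9 over all arrays. Of 10 other reported target genes 6 had a higher mean, and 3 lay higher without overlap, beside 17% of all genes tested. These 3 were Snai2, Ccnd1 and Nrarp. Snai2 differed by 1.46 ± 0.49 (SE; limma adjusted p = 0.137, and 0.0330 with the block). Ccnd1 and Nrarp differed by 0.85 ± 0.33 and 0.71 ± 0.29 (SE, limma adjusted p = 0.181 and 0.194). In KO array 1 alone Snai2, Ccnd1 and Nrarp lay 0.68, 0.26 and 0.81 above their wild-type means. Nrarp read 154, 198 and 135 in wild type against 294, 227 and 307 in the KO. Nfkb2 differed by -1.04 ± 0.39 (SE), and by 0.04 on its second probe set. The brightest probe sets of Dlk2, Dtx2, Hes6, Nfkb2 and Snai2 carry a suffix that marks possible cross-hybridisation.

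**Figure D5:**
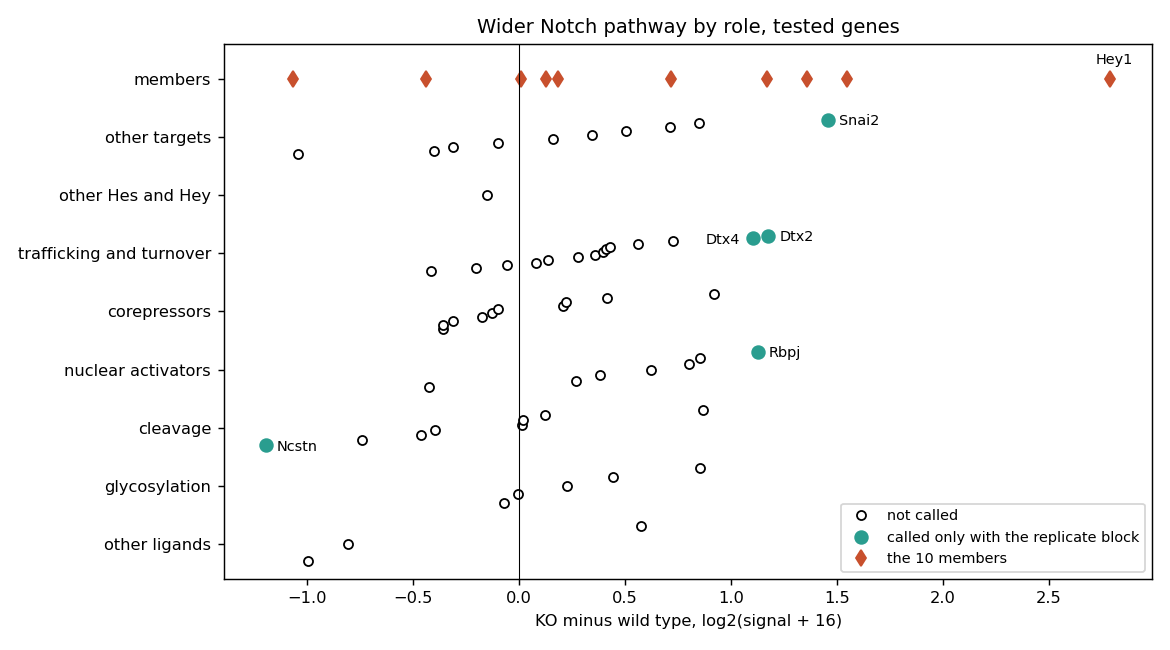
Difference between KO and wild type on the log2(signal + 16) scale (horizontal axis) for the 58 tested genes of the wider pathway by role, with the 10 members in the top line. The difference of Hey1, 2.79, lies beyond all others, and the 5 genes in green passed with the replicate block alone.

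The 5 genes whose log2 values over the 6 arrays were most alike to those of Hey1 were Gbe1, Nnmt, Gimap6, Hat1 and Cyp1b1, with Pearson correlations of 0.994 to 0.998. These points share arrays and groups, and 195 genes, or 1.79% of the others tested, reached 0.95, so the likeness mostly describes 2 groups that do not overlap. Cyp1b1, a cytochrome P450 of stromal cells, rose by 1.78 ± 0.29 and Nnmt, nicotinamide N-methyltransferase, by 1.67 ± 0.26 (SE; limma adjusted p = 0.0354 for both). Gbe1, the glycogen branching enzyme, the histone acetyltransferase Hat1 and the GTPase Gimap6 differed by 1.08, 1.09 and 1.00 without passing, and passed with the replicate block (adjusted p = 0.0351, 0.0333 and 0.0410). Among the members, Mfng and Notch1 correlated with Hey1 at 0.930 and 0.928, Jag1 at 0.908, and Hes1 at -0.02.

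Many of these genes are expressed in more than the epithelium, so markers of the cell types of a whole gland were read beside them. For every marker list the counts stand beside those over all 10917 genes tested. Of these, 5902 had a higher mean, 2420 had an unadjusted p under 0.05, and 1.09% passed in limma. With the block 7.57% rose and 4.43% fell, and 17% lay higher and 10.7% lower without overlap. The summed signal of 14 endothelial markers was 2395 to 2749 in wild type against 2542 to 3281 in the KO, with overlap. In that list 8 of 14 had a higher mean, the median difference was 0.02, 0 passed in limma and 2 had an unadjusted p under 0.05. Pecam1, Cdh5 and Kdr differed by -0.49, -0.16 and 0.06, and a second Cdh5 probe set by -1.05 without overlap. Vwf and Sox17 differed by 1.54 and 0.74 without overlap, and Vwf rose with the replicate block (adjusted p = 0.0201). The sum of 10 markers of mural cells was 1853 to 2100 in wild type against 2446 to 4299 in the KO, without overlap. In that list 8 of 10 had a higher mean, 0 passed in limma and 5 had an unadjusted p under 0.05. Pdgfrb differed by 1.74 and rose with the block (adjusted p = 0.0342), and Cspg4 and Ndufa4l2 differed by -1.23 and -0.77. Rgs5 differed by 0.79 on its brightest probe set and by -0.97, -0.57 and -0.57 on the others. Notch3 is itself in the mural list.

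The sum of 10 fibroblast markers was 12800 to 20306 in wild type against 25664 to 40492 in the KO, and 4 of 10 rose (7 with the block). The sum of 8 macrophage markers was 3323 to 5148 and 6848 to 11227, and 2 of 8 rose (4 with the block). Of the hormone-sensing luminal markers, 6 of 10 were bright enough for testing. Of these, 2 rose, Foxa1 by 2.47 ± 0.30 and Prom1 by 2.94 ± 0.35 (SE; limma adjusted p = 0.0282 for both), and 3 with the block. The wild-type means of Foxa1 and Prom1, 44.5 and 8.73, were below the signal limit for testing of 47.8. Both genes thus entered the test only through their KO signals, with means of 329 and 173. By mean 5 of the 6 were higher and 1 was lower. The lower one, Greb1, differed by -0.99 without overlap, and Esr1 and Pgr, at 0.46 and 1.24, overlapped between groups. The sum of the 7 with a probe set was 603 to 912 in wild type against 1621 to 1797 in the KO. For 6 adipocyte markers the sums were 17805 to 20914 and 24313 to 34461, and 0 passed in limma (3 rose with the block, and 3 had an unadjusted p under 0.05).

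In the other marker lists 0 genes passed in limma, and some passed with the block, beside 1.09% and 12% of all genes tested. The sums of 10 basal markers overlapped, and 5 had a higher and 5 a lower mean. Krt5 differed by -0.24, and Krt14 by 0.17 on its brightest probe set and by -0.27 and -0.77 on the others. Acta2 differed by -0.36 and Trp63 by 1.25, both without overlap, and Lgr6 by 2.18, which rose with the block (adjusted p = 0.0145). Lgr6 had a wild-type mean of 35.7, below the limit of 47.8, and was tested only through its KO mean of 235. The sums of 8 pan-epithelial markers overlapped, with 4 higher and 4 lower by mean. Epcam, Krt8 and Krt18 differed by -0.06, 0.27 and 0.45, Cldn3 by -0.96, and Cdh1 by 0.93, which rose with the block (adjusted p = 0.0450). In KO array 1 alone these 5 genes lay -0.68, -0.21, 0.0094, -0.21 and -0.13 from their wild-type means, in that order. The sums of 8 luminal progenitor markers, 24780 to 45604 in wild type against 16839 to 23155 in the KO, are mostly the signals of the milk gene Csn3 and of Elf5. Of the 6 tested, Elf5, Cd14 and Csn3 had a lower mean, whereas Kit, Aldh1a3 and Tspan8 differed by 1.99, 1.66 and 1.45 and rose with the block (adjusted p = 0.0254, 0.0219 and 0.0494). The sums of 10 milk markers overlapped, but all 10 had a lower mean (median -0.76; Csn2 -0.68 and Wap -0.51) and 6 fell with the block. Those of 6 skeletal muscle markers also overlapped, with all 6 higher by mean and 3 rising with the block. Those of 6 lymphocyte markers overlapped, and 1 rose with the block. Unadjusted p-values under 0.05 numbered 2 of 10 basal, 0 of 8 pan-epithelial, 5 of 6 luminal progenitor, 3 of 10 milk, 2 of 6 skeletal muscle and 2 of 5 tested lymphocyte markers. Over all genes tested they numbered 2420 of 10917. No marker was listed at 0 in any array, though Prom1 read only 1.5, 11.4 and 13.3 in wild type. The sums of fibroblast, macrophage, mural, adipocyte and hormone-sensing luminal markers thus were higher in every KO array, as Hey1 was, and their part in its difference was not tested.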

How the data were processed

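The authors deposited linear intensities of 45101 probe sets for 6 arrays; MAS5 and affy are named, without versions, in the submitters' processing notes. The 2% trimmed mean was 150 in every array, so signals were scaled per array; no genome build is given in the sources used here, and array images were not used. Gene names came from the platform's annotation: 34945 had 1 gene, 932 had several and 9224 had none or were controls.

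The brightest probe set by mean over the 6 arrays stood for a gene. Genes below the 40th percentile of that mean, a signal of 47.8, were left out, and below 31.5 in the fit over all probe sets. Groups were compared on log2(signal + 16) with limma 3.58.1 in R 4.3.3 (lmFit, eBayes with an intensity trend), and p-values were adjusted by Benjamini-Hochberg over every gene in the fit (threshold 0.05). SE is limma's moderated standard error, with n = 3 arrays per group. The number of arrays limits the precision. The fit was tested on simulated data.

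Arrays with the same replicate number deviated together (r = 0.465, 0.337 and 0.298 across genes for numbers 1, 2 and 3), so the fit with the number as a block is given beside the named genes and the counts whose calls it changes. The labels do not say that numbers pair the mice.

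Genes named were the 10 members, Elf5 and pathway genes with the 2 smallest p-values per role. The 5 genes most like Hey1 and fixed cell type markers were also named. Hey2, Tle1, Nrarp, Ccnd1 and the other markers named were added after their values were seen. Members, lists and tests were chosen with earlier results of these data known. Alternatives covered pseudocount, filter, scaling, trend, choice of probe set, array weights, block, a Gapdh covariate and left-out arrays.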

Additional observations from a re-analysis of the deposited data

How the results depend on the processing

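The shift of Hey1 against the mean of Hes1 and Heyl kept its direction in all 14 alternatives in which it was computed, at 2.23 to 3.39. Among these, the replicate block could not change it. The Hey1 difference kept its direction in all 20 settings, including those that could not change its size, and its call in 13. The call was lost with all probe sets tested (2.79, adjusted p = 0.0780), in the 4 arrays with a Gapdh ratio under 2 (2.53, adjusted p = 0.154; 1 KO array, assumed to vary like wild type) and with that ratio as a covariate (2.60, adjusted p = 0.112). Without 1 array each it was 2.71 to 2.92. The count of members called, 1, became 0 in those 3 settings, 4 with the replicate block and 6 with array weights, and 0 to 4 without 1 array each (4 without KO array 1, 1 without wild-type array 1, 0 without any other). For the wider pathway 0 became 5 with the replicate block, 14 with array weights, and 0 to 5 without 1 array each (5 without KO array 1). Beside these counts, 1310 of all 10917 genes passed with the block, 2846 with array weights and 1214 without KO array 1. For member probe sets 0 became 7 with array weights, and 0 to 3 without 1 array each (3 without KO array 1). The share over all probe sets in those fits was not counted. With the block Jag1, Notch2 and Mfng also passed, and no other call among the member genes changed.

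Counts over all genes moved as well, from 119 to 1310 with the replicate block, 2846 with array weights, 186 with quantile normalization, 75 with probe sets averaged, 29 without a filter and 15 with median scaling. There were 0 to 1214 calls without 1 array each, with 1214 without KO array 1, and 0 with the Gapdh covariate and in the 4 arrays. Median scaling shifted the median of all genes from 0.07 to -0.04.

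Signs turned for Hes1, Notch3, Notch4 and Jag2. Hes1 was -0.0054 with a pseudocount of 1, -0.10 with median scaling and -0.33 to 0.50 without 1 array each. It was 0.68 in the 4 arrays with a Gapdh ratio under 2, and 0.73 with that ratio as a covariate. In those settings Hey1 minus Hes1 shifted by 1.85 and 1.87, beside 2.78 with all arrays and no covariate. Notch3 and Notch4 were -0.50 and -0.50 with probe sets averaged. Notch3 was -0.0035 to 0.27 without 1 array each (-0.0035 without KO array 2). In the 4 arrays Notch4 was -0.10, and Jag2 was 0.0015, beside -1.07 with all arrays. The cause of these changes was not tested. A filter on mean log2 signal, chosen after seeing the data, gave 118 calls. Detection calls were not used, and the dim signals of Heyl limit what its values can show.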
